A study of Mus musculus with 2 samples.

Results

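The 10 genes described here encode the ligands, receptors and close partners of the transforming growth factor beta (TGF-beta) and activin pathway. They were taken by name, with earlier results of these data known, as a list of 10 among the 19550 genes counted. All 10 had UMIs. They comprise the ligands *Tgfb1*, *Tgfb2* and *Tgfb3*, the receptors *Tgfbr1*, *Tgfbr2* and *Tgfbr3*, the matrix gene *Tgfbi*, the activin subunits *Inhba* and *Inhbb*, and the latency gene *Ltbp1*. Cells came from wild type C57BL/6 mice, from the esophagus, the squamocolumnar junction between esophagus and stomach (GE-SCJ) and the stomach, as embryos of day 15 or 19 (E15, E19), pups of 2 days and adults of 8 weeks. The labels give 6, 2, 2 and 3 mice for the 4 stages, whereas the methods speak of cells combined from 3 mice. Minced tissue was digested with collagenase, and the cells of each region and stage were pooled, given an oligonucleotide tag and sequenced together in 1 library, so each combination of region and stage is 1 sample. No treatment or allele distinguishes the groups.

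The library held 7808 cells and 107865155 UMIs (unique molecular identifiers, each standing for a captured mRNA molecule), with 519 to 79817 UMIs and a median of 10424.5 per cell. There were 11 combinations of region and stage. Cells of the adult stomach were not analysed here. The authors' 9 cell labels were kept. Of the 4 marker genes set for each cell type, all 4 were highest in their own label for squamous, columnar, stromal, smooth muscle, endothelial, immune and neural cells. The stromal label had the fibroblast markers (*Col1a1*, *Dcn*, *Pdgfra* and *Lum*). For the label Stromal-2, 3 of 4 mesothelial markers (from *Upk3b*, *Wt1*, *Msln* and *Lrrn4*) were highest, and it is called by its label. No barcode was listed more than once.

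As background, TGF-beta ligands are secreted in a latent form bound to a propeptide. The latent complex is tethered to the extracellular matrix by latent TGF-beta binding proteins such as LTBP1. Once freed, the ligand binds the type II receptor TGFBR2, which phosphorylates the type I receptor TGFBR1, and that receptor in turn phosphorylates SMAD2 and SMAD3. Betaglycan, the product of *Tgfbr3*, presents ligand, above all TGF-beta 2, to the type II receptor and also binds inhibin. Activins are dimers of the subunits encoded by *Inhba* and *Inhbb* and signal through receptors of their own to the same SMAD proteins. TGFBI is a secreted matrix protein named for its induction by TGF-beta. In the gut wall the pathway is known for restraining epithelial growth and for driving matrix production by mesenchymal cells.

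Promoter windows of 3 members are shown because *Tgfb1* and *Tgfb2* were highest in different cell types and because *Tgfbr2* was higher in pup than in E15 stromal cells of every region. Each runs from 250 bases before to 50 bases after the transcription start, 5′ to 3′ on the strand of the gene, from RefSeq (GRCm38.p6). Capitals mark 4 short motifs on either strand, which are the TATA box (TATAAA), the E-box (CACGTG), the GC box (GGGCGG) and the CCAAT box. *Tgfb1* lies at chr7:25686752-25687051 on the plus strand, *Tgfb2* at chr1:186705940-186706239 on the minus strand and *Tgfbr2* at chr9:116175314-116175613 on the minus strand.
Tgfb1: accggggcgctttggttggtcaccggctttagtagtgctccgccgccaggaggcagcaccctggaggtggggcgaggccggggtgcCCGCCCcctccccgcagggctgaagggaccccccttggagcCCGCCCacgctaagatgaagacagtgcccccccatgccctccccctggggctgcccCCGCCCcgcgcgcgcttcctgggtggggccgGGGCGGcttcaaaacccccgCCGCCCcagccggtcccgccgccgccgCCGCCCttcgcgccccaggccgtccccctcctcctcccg
Tgfb2: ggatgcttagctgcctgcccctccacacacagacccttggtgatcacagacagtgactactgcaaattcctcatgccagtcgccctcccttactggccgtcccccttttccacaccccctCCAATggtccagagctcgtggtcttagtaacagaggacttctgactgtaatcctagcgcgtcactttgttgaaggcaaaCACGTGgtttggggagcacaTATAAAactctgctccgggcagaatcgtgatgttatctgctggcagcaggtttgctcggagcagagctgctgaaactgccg
Tgfbr2: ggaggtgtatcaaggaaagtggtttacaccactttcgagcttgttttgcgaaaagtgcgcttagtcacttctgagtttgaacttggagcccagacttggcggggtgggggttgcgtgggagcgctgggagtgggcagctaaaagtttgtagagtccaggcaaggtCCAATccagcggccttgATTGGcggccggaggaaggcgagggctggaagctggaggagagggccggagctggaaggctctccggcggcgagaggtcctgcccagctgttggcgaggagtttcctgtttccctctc
The *Tgfb1* window held the GC box or its reverse complement 6 times and none of the other motifs. Its GC content was 77.0%, with 30 CpG dinucleotides. The *Tgfb2* window held the TATA box at position -31 from the start, the E-box at -51 and a CCAAT box at -130 and no GC box, and had a GC content of 54.3% with 10 CpG. In the *Tgfbr2* window a CCAAT box occurred at -85 and, as its reverse complement, at -68, and the GC content was 59.0% with 15 CpG. Among 32851 promoter windows of the same length, 13.6% held the TATA box letters, 7.15% the E-box, 35.7% the GC box and 37.4% the CCAAT box. No motif overlapped another in these 3 windows. The matches describe the letters and do not show binding. *Tgfb3* and *Tgfbr3* had no entry.

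In the GRCm38 gene annotation, *Tgfb1* spans chr7:25687002-25705077, *Tgfb2* chr1:186622792-186705989 and *Tgfb3* chr12:86056745-86079041. *Tgfbr1* spans chr4:47353222-47414931, *Tgfbr2* chr9:116084293-116175360 and *Tgfbr3* chr5:107106570-107289629. *Tgfbi* spans chr13:56609523-56639562, *Inhba* chr13:16011851-16031621, *Inhbb* chr1:119415465-119422248 and *Ltbp1* chr17:75005568-75392512. *Ltbp1* overlaps the gene model *Gm6276* on its own strand, as *Tgfbr3* does 3 others named with its values.

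Levels are given as CPM, UMIs of the gene per 1000000 UMIs of all genes, over the summed cells of a group, with an exact Poisson 95% interval in parentheses. Since every group is 1 pooled sample, these intervals cover counting error only and there is no replicate error, no test and no p-value. Shares of cells are given after each cell was thinned to 5000 UMIs, with an exact Clopper-Pearson 95% interval, and shallower cells were left out (502 of 3442 stromal cells, 52 of 1540 columnar, 101 of 354 immune and 83 of 419 neural cells). Levels are compared between groups for 1 gene and not between genes.

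The TGF-beta ligands had different cell types as their highest source. *Tgfb1* was at 177 CPM (164 to 191) in immune cells, 113 CPM (97.8 to 130) in endothelial cells and 15.4 CPM (14.1 to 16.8) in stromal cells, and was lowest in columnar cells with 2.34 CPM (1.90 to 2.84). A *Tgfb1* UMI was seen in 56.9% of thinned immune cells (50.6 to 63.1), against 1.48% of columnar cells (0.929 to 2.23). Unthinned, the shares were 66.7% and 5.32%, at median depths of 8266.5 and 25118 UMIs per cell. Immune and endothelial cells thus stood apart from the other 7 labels, none of which passed the stromal level. Within the immune label, 278 cells with a UMI of the macrophage genes *Csf1r* or *Cd68* had *Tgfb1* at 187 CPM (172 to 202). The 76 cells without either had 98.5 CPM (70.7 to 134), a split chosen after the values were seen. Cells without either gene were shallower, with a median of 2901 UMIs against 9660.5, so the split also divides by depth. The part of depth was not tested. Across 8 groups of immune cells by region and stage, the level ran from 130 CPM (92.2 to 179) in the E15 esophagus to 208 CPM (166 to 257) in the E15 stomach, with the E15 GE-SCJ also at 208 CPM (161 to 265), and the intervals of these extremes overlap.

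*Tgfb2* was highest in neural cells at 491 CPM (468 to 513), followed by Stromal-2 at 221 CPM (197 to 248), stromal cells at 53.9 CPM (51.4 to 56.4), smooth muscle at 29.2 CPM (26.1 to 32.6) and endothelial cells at 23.6 CPM (17.0 to 31.9). The last 2 of these overlap. The immune level of 2.92 CPM (1.46 to 5.23) serves as a guide to free RNA. In CPM, squamous cells at 2.27 (1.44 to 3.40) and columnar cells at 3.68 (3.13 to 4.30) lay at it. All these levels are over all regions and stages. Columnar cells were deeper, with a median of 25118 UMIs per cell, and held 159 *Tgfb2* UMIs in 1540 cells against 11 in 354 immune cells. The part of free RNA in the epithelial levels was not tested. A *Tgfb2* UMI was found in 69.6% of thinned neural cells (64.4 to 74.5) and 1.19% of thinned immune cells (0.245 to 3.43). Unthinned, the shares were 74.9% and 2.82%, at median depths of 7900 and 8266.5 UMIs per cell.

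Neural cells of the gut wall are enteric neurons, their progenitors and glia. The level of *Tgfb2* in them was 263 CPM (230 to 301) in the E15 esophagus, 375 CPM (321 to 435) in the E15 GE-SCJ and 435 CPM (394 to 479) in the E15 stomach. At E19 it was 429 CPM (379 to 482) in the GE-SCJ and 901 CPM (818 to 991) in the stomach. In the pup it was 670 CPM (522 to 849) in the esophagus and 1103 CPM (907 to 1330) in the stomach, the highest value of *Tgfb2* in any group of at least 20 cells. Among groups of at least 20 cells, the stomach had the highest level at each of the 3 stages, and at E15 its interval overlaps that of the GE-SCJ.

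*Tgfb3* was highest in Stromal-2 at 163 CPM (142 to 186), with stromal cells at 38.4 CPM (36.3 to 40.6) and smooth muscle at 20.5 CPM (17.9 to 23.3). Every other label was below 10 CPM, and the immune level was 6.91 CPM (4.51 to 10.1). Over all stages pooled, Stromal-2 was thus above stromal cells for *Tgfb2* and *Tgfb3*, and also for *Ltbp1*. *Ltbp1* was at 177 CPM (155 to 200) in Stromal-2, 124 CPM (117 to 131) in smooth muscle and 65.7 CPM (63.0 to 68.6) in stromal cells. For *Tgfb2* this order did not hold in the pup, with 114 CPM (82.5 to 154) in Stromal-2 and 146 CPM (127 to 167) in stromal cells, which overlap. With classes set from marker genes in place of the labels, stromal cells were highest for *Tgfb3* and smooth muscle for *Ltbp1*. Those classes take the marker list with most UMIs in a cell. Stromal-2 held 5031 CPM of the fibroblast markers against 1841 CPM of the mesothelial ones, so its cells can be classed as stromal. This alternative therefore cannot decide whether Stromal-2 was highest. LTBP1 tethers all 3 latent ligands to matrix. A UMI of any of the 3 ligands was present in 71.7% of thinned neural cells (66.6 to 76.5), 70.8% of Stromal-2 (61.8 to 78.8), 59.7% of immune cells (53.4 to 65.8), 36.3% of stromal cells (34.6 to 38.1), 7.82% of squamous cells (5.74 to 10.3) and 4.03% of columnar cells (3.09 to 5.16). Unthinned, the squamous and columnar shares were 18.3% and 14.1%.

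Stromal-2 had at least 20 cells in 2 groups, the E19 GE-SCJ and the pup stomach. *Ltbp1* was at 142 and 336 CPM in them, *Tgfbr3* at 105 and 280 CPM and *Tgfbi* at 68.2 and 290 CPM. *Tgfb2* was at 203 and 117 CPM and *Tgfb3* at 152 and 148 CPM. These groups differ in both region and stage, which cannot be told apart.

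The receptors were detected in every label, and levels are first given over all stages pooled. *Tgfbr1* was highest in immune cells at 138 CPM (127 to 151), followed by neural cells at 59.0 CPM (51.5 to 67.3), smooth muscle at 51.5 CPM (47.3 to 56.0) and Stromal-2 at 49.9 CPM (38.7 to 63.4), which overlap each other. *Tgfbr2* was highest in endothelial cells at 214 CPM (194 to 237), then stromal cells at 102 CPM (98.3 to 105), Stromal-2 at 102 CPM (85.7 to 121) and immune cells at 76.3 CPM (67.7 to 85.6). Its lowest level was in squamous cells, at 15.3 CPM (13.0 to 17.9). *Tgfbr3* was at 162 CPM (141 to 185) in Stromal-2, 113 CPM (109 to 116) in stromal cells and 112 CPM (106 to 119) in smooth muscle, and at 6.38 CPM (4.09 to 9.49) in immune cells. The highest of these became stromal cells with classes from marker genes and smooth muscle when the CPM of single cells was averaged. The marker classes have the limit given for *Tgfb3*. Immune cells were thus the highest label of *Tgfbr1* and the lowest of *Tgfbr3*. Within E15, E19 or the pup, Stromal-2 did not exceed stromal cells in *Tgfbr3* beyond counting error. In that order of stages Stromal-2 had 63.7, 107 and 337 CPM and stromal cells 59.3, 101 and 649 CPM. Smooth muscle, with 40.7, 53.8 and 599 CPM, lay below stromal cells, overlapping them in the pup alone. *Tgfbr2* had 28.7, 77.2 and 202 CPM in Stromal-2 and 82.1, 101 and 237 CPM in stromal cells, with overlap after E15. The part of stage in the pooled levels was not tested. UMIs of both *Tgfbr1* and *Tgfbr2* were met in 10.3% of thinned immune cells (6.82 to 14.7), 6.29% of stromal cells (5.44 to 7.23) and 0.806% of columnar cells (0.417 to 1.40). Unthinned, columnar cells reached 19.7% and stromal cells 16.4%, the reverse order, at median depths of 25118 and 8940 UMIs per cell.

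Over all stages pooled, *Tgfbi* was nearly level in 3 labels, with 201 CPM (187 to 216) in immune cells, 196 CPM (188 to 204) in smooth muscle and 189 CPM (184 to 194) in stromal cells. These neighbours overlap, and averaging the CPM of single cells puts smooth muscle first. Single stages differed. In the same order the levels were 144, 179 and 165 CPM at E15 and 182, 172 and 204 CPM at E19. In the pup, immune cells at 365 CPM (319 to 417) and smooth muscle at 353 CPM (320 to 387) were above stromal cells at 158 CPM (138 to 180). The labels mix the regions unequally. Pup stroma was at 78.0 CPM in 151 esophageal, 109 CPM in 82 GE-SCJ and 314 CPM in 78 stomach cells. Pup smooth muscle had 22, 119 and 113 cells in the same order. The part of region in the pup difference was not tested. Over all stages, *Tgfbi* was at 218 CPM (203 to 235) in the immune cells with *Csf1r* or *Cd68* and 64.8 CPM (42.7 to 94.3) in those without. The unlike depth of these sets is given above. The activin subunits were the sparsest members. *Inhba* was highest in smooth muscle at 33.6 CPM (30.3 to 37.3), with 16.4 CPM (10.3 to 24.8) in Stromal-2 and 15.4 CPM (14.1 to 16.8) in stromal cells. *Inhbb* had 126 UMIs in all. It was at 5.05 CPM (2.31 to 9.59, 9 UMIs in 3 cells) in endothelial cells, 3.05 CPM (2.08 to 4.33) in squamous cells and 1.74 CPM (1.36 to 2.18) in columnar cells. No UMI of *Inhbb* was found in 354 immune cells, which allows up to 0.797 CPM (for 0 UMIs, the limit given is that of 3 counts), nor in 419 neural cells, which allows up to 0.801 CPM. Of the 9 endothelial UMIs, 8 came from 21 pup cells, at 68.8 CPM (29.7 to 135). Endothelial and squamous cells overlap in *Inhbb*, and without the 1% of cells with most of its UMIs, squamous cells were first.

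**Figure D1:**
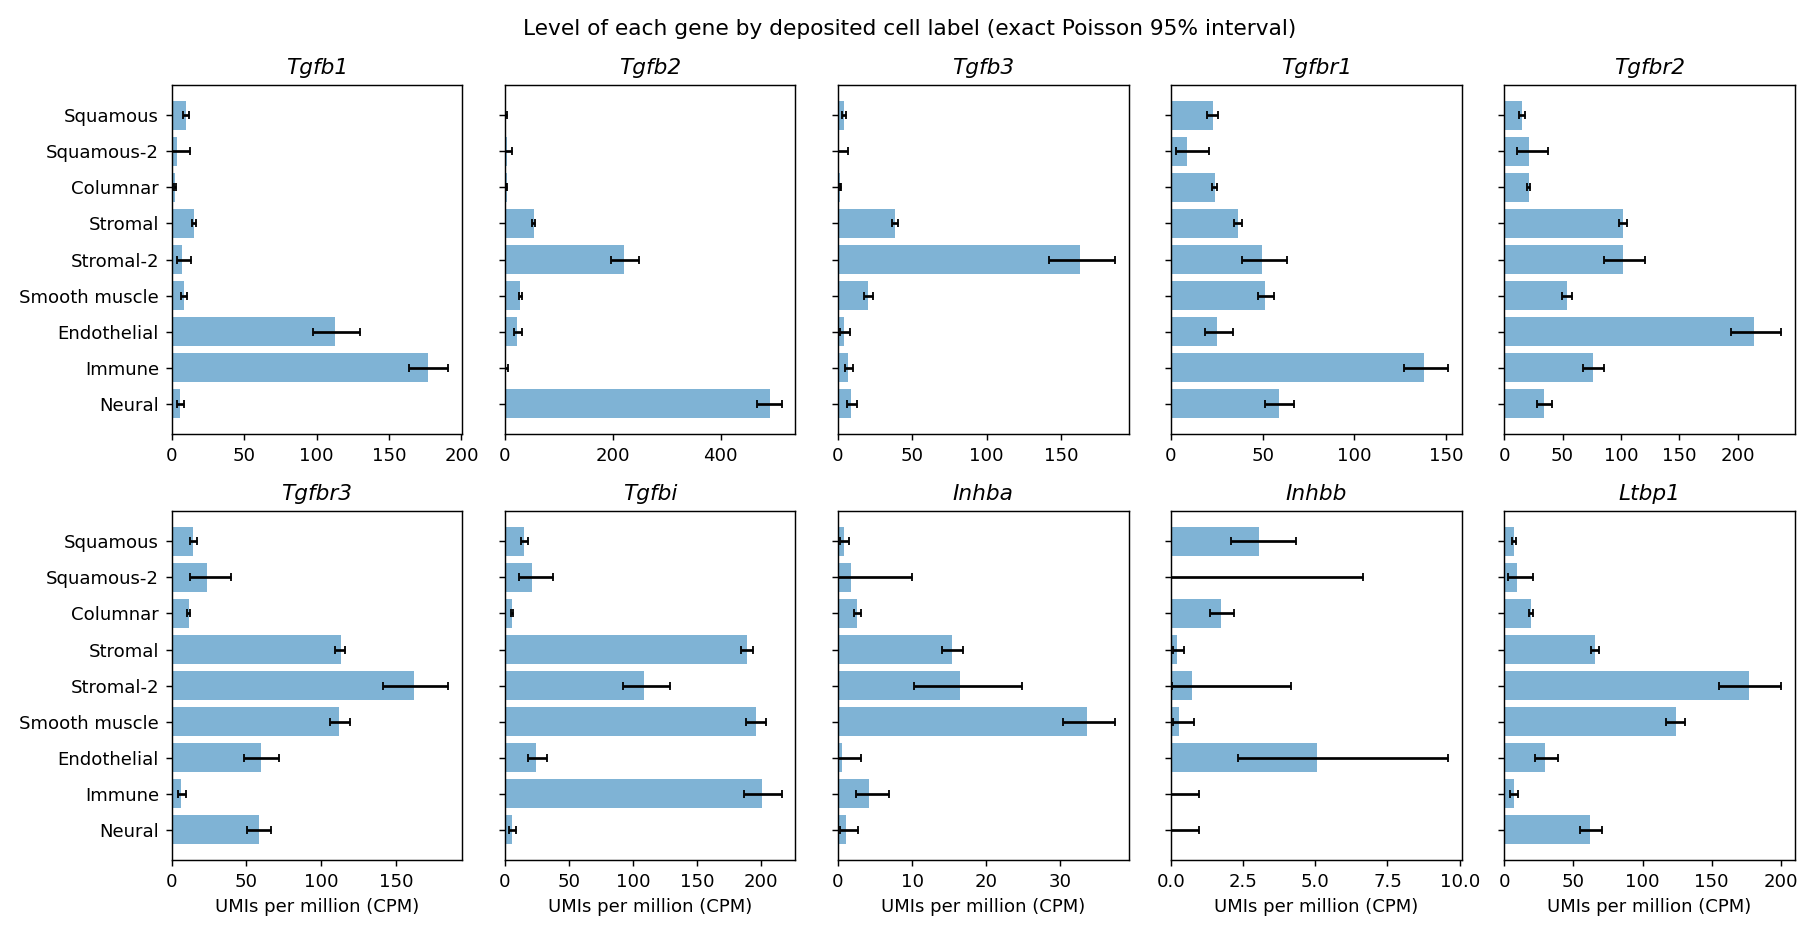
Level of each of the 10 genes (x axis, CPM, a separate scale for each gene) in the 9 cell labels (y axis). Bars are the CPM of summed UMIs and error bars the exact Poisson 95% interval. *Tgfb1* reaches 177 CPM in immune cells and *Tgfb2* 491 CPM in neural cells, whereas *Tgfb3* peaks in Stromal-2 at 163 CPM.

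Differences between groups are given as the log2 ratio of CPM with 1 UMI added to each sum and an exact 95% interval. A gene was considered where both groups together held at least 50 UMIs, and was counted as higher or lower where the ratio passed 2-fold. Beside each count of members stands the percentage of all considered genes past 2-fold in the same comparison. Counts of other pathway genes are to be read against the same percentages. Members and lists were chosen with earlier results of these data known, so the counts are a description. *Inhbb* was under 50 UMIs in every comparison.

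Stromal cells of the esophagus and the stomach were compared at 3 stages, to see which signalling genes of the mesenchyme follow the region. *Tgfbi* was lower in the esophagus at each stage. *Tgfb2* was lower in the esophagus at E15 and E19, and *Tgfb1* and *Ltbp1* were lower at E19. *Inhba* was higher in the esophagus at E15 and *Tgfb3* at E19. Of 9 members considered, 3 were past 2-fold at E15, where 6.17% of all genes were. At E19 it was 5 of 9, against 8.45% of all genes, and in the pup 1 of 7, against 5.80%. The pup groups were smaller (151 and 78 cells) and shallower, with a median of 3859 and 5072.5 UMIs per cell against 10573 and 9858 at E15.

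*Tgfbi* in stromal cells of the esophagus had E15 and E19 levels of 93.2 CPM (83.7 to 103) and 121 CPM (113 to 129), a pup level of 78.0 CPM (57.7 to 103) and an adult level of 111 CPM (66.0 to 176). In the stomach it was at 239 CPM (223 to 255), 290 CPM (277 to 303) and 314 CPM (264 to 370) from E15 to the pup. The GE-SCJ lay between them at each of these stages, with 164 CPM (151 to 177), 208 CPM (196 to 220) and 109 CPM (79.1 to 147), though in the pup its interval overlaps that of the esophagus. As a log2 ratio, esophagus over stomach was -1.35 (-1.53 to -1.18) at E15, -1.26 (-1.38 to -1.14) at E19 and -1.99 (-2.48 to -1.51) in the pup. In the pup 0.297% of all considered genes had a lower ratio than *Tgfbi*.

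*Tgfb2* in stromal cells was at 28.9 CPM (23.7 to 34.8) in the esophagus and 63.1 CPM (55.4 to 71.6) in the stomach at E15, a log2 ratio of -1.12 (-1.46 to -0.79). At E19 the levels were 24.8 CPM (21.2 to 28.8) and 51.7 CPM (46.4 to 57.5), with a ratio of -1.06 (-1.33 to -0.79). In the pup both were higher and overlapped, at 148 CPM (120 to 181) and 168 CPM (132 to 211). *Tgfb3* went the other way before birth, with 62.3 CPM (56.6 to 68.5) in the esophagus and 27.7 CPM (23.8 to 32.0) in the stomach at E19, a log2 ratio of 1.17 (0.91 to 1.42). *Tgfb1* at E19 was at 7.31 CPM (5.44 to 9.61) in the esophagus and 23.6 CPM (20 to 27.6) in the stomach, a log2 ratio of -1.67 (-2.15 to -1.21). The 3 ligand genes of stromal cells thus did not share 1 regional order at E19.

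*Ltbp1* in esophageal stromal cells had E15 and E19 levels of 70.6 CPM (62.4 to 79.6) and 16.6 CPM (13.7 to 19.9). Its pup level was 65.3 CPM (46.9 to 88.6) and its adult level 130 CPM (80.5 to 199). In the stomach it stayed between 70.2 CPM (63.9 to 76.9) at E19 and 78.3 CPM (69.7 to 87.7) at E15. The E19 esophagus was thus the low group, with a log2 ratio to the stomach of -2.07 (-2.37 to -1.77), and was the largest stromal group with 739 cells and a median depth of 9172 UMIs. *Inhba* at E15 was at 26.2 CPM (21.4 to 31.9) in the esophagus, 4.78 CPM (2.83 to 7.55) in the GE-SCJ and 6.02 CPM (3.82 to 9.04) in the stomach, and esophagus over stomach gave 2.08 (1.42 to 2.78). The esophageal E15 group also had more smooth muscle marker UMIs, at 1197 CPM for the 4 markers against 919 CPM in the GE-SCJ, where *Inhba* was lowest, and 630 CPM in the stomach, and *Inhba* was highest in smooth muscle. Their part in the difference was not tested.

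At E19 the GE-SCJ stroma was set against each neighbour. It was higher than the esophagus in *Ltbp1*, *Tgfb1* and *Tgfb2*, and 3 of 9 members were past 2-fold where 8.20% of all genes were. Against the stomach 0 of 9 members passed 2-fold, where 0.972% of all genes did. *Ltbp1* was at 93.9 CPM (86.1 to 102) in the GE-SCJ, with a log2 ratio of 2.49 (2.20 to 2.79) over the esophagus. *Tgfb1* was at 18.7 CPM (15.3 to 22.6), with 1.34 (0.85 to 1.85), and *Tgfb2* at 56.5 CPM (50.5 to 63.0), with 1.18 (0.91 to 1.46). The GE-SCJ group is the same in both comparisons, and the esophageal group is the one described above. Dissected GE-SCJ tissue holds tissue of both neighbours, and the share of each was not tested.

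Of the 35 other pathway genes (latency and activation, activin branch and antagonists, coreceptors, transducers and response genes), 1 was past 2-fold in each direction at E15 among 29 considered, for esophagus over stomach. At E19 it was 1 up and 5 down of 32, and in the pup 1 up and 1 down of 17. For the GE-SCJ at E19, 6 were up and 0 down of 32 against the esophagus, and 1 up and 0 down of 32 against the stomach. None of these passed 4-fold.

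**Figure D2:**
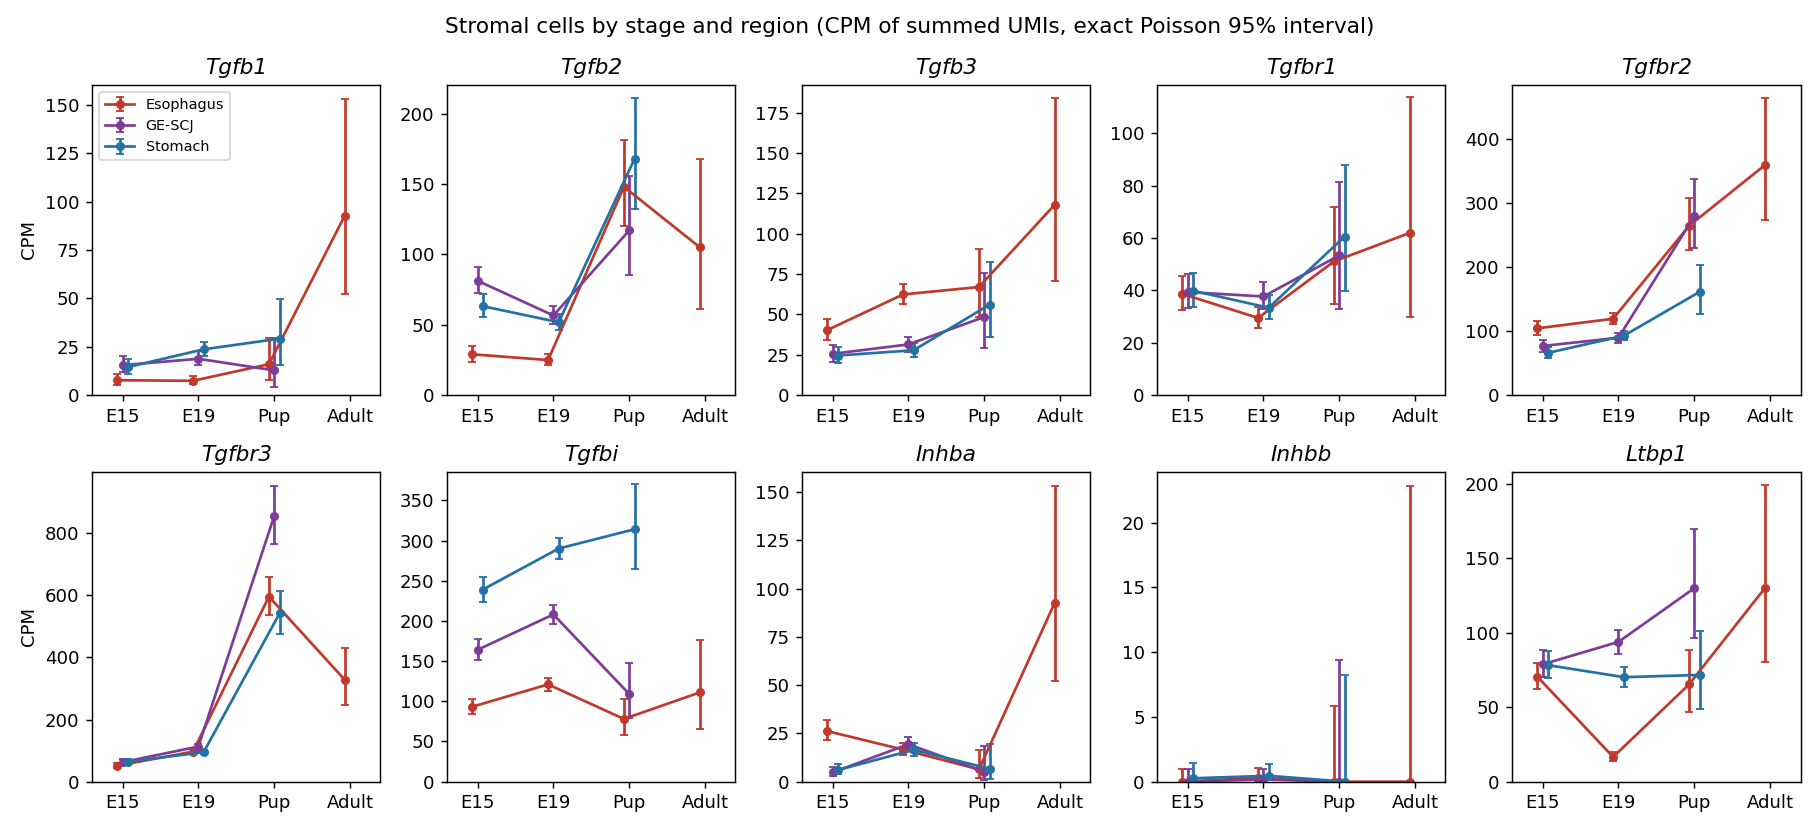
CPM of each of the 10 genes (y axis, a separate scale for each gene) in stromal cells by stage (x axis) and region (colours), with exact Poisson 95% intervals. *Tgfbr3* lies at 51.2 to 63.9 CPM at E15 and 542 to 856 CPM in the pup, and *Tgfbi* in the stomach lies above the esophagus at all 3 stages measured in both.

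In stromal cells the pup was set against E15 in each region. *Tgfbr3* and *Tgfbr2*, the betaglycan and type II receptor genes, were higher in the pup in all 3 regions. *Tgfb2* was higher in the esophagus and the stomach, and *Tgfb1* and *Tgfb3* were past 2-fold in the stomach. In the esophagus *Tgfb1* held under 50 UMIs and was not counted. *Inhba* was lower in the esophagus. Past 2-fold were 4 of 8 members in the esophagus, where 22.8% of all genes were, 2 of 8 in the GE-SCJ, against 23.2%, and 5 of 8 in the stomach, against 19.7%. The median log2 ratio of the members considered was 0.60, 0.65 and 1.17 in the 3 regions, and that of all considered genes was -0.10, -0.09 and -0.10.

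*Tgfbr3* in stromal cells at E15 was at 51.2 CPM (44.3 to 58.9) in the esophagus, 62.9 CPM (55.1 to 71.4) in the GE-SCJ and 63.9 CPM (56.1 to 72.4) in the stomach. At E19 it was at 96.9 CPM (89.7 to 104), 113 CPM (105 to 122) and 95.1 CPM (87.8 to 103). In the pup it was at 596 CPM (537 to 659), 856 CPM (767 to 953) and 542 CPM (476 to 615), and in the adult esophagus at 328 CPM (246 to 429). The step from E15 to E19 was thus smaller than that from E19 to the pup, and the intervals of these 3 stages do not overlap in any region. As a log2 ratio, the pup over E15 gave 3.54 (3.28 to 3.79) in the esophagus, 3.77 (3.52 to 4.01) in the GE-SCJ and 3.08 (2.82 to 3.35) in the stomach. Of all considered genes, 99.5%, 99.6% and 99.4% had a lower ratio.

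*Tgfbr3* was likewise higher in pup smooth muscle. It was at 32.6 CPM (23.0 to 45.0), 45.6 CPM (36.1 to 56.8) and 41.1 CPM (31.9 to 52.1) at E15 in esophagus, GE-SCJ and stomach, and at 236 CPM (155 to 343), 590 CPM (528 to 656) and 683 CPM (616 to 755) in the pup. In the adult esophagus it was back at 64.2 CPM (32.0 to 115). Neural cells of the esophagus went from 71.0 CPM (54.0 to 91.5) at E15 to 369 CPM (261 to 507) in the pup. Over all regions, *Tgfbr3* in endothelial cells was at 42.7 CPM (29.4 to 59.9) at E15 and 189 CPM (118 to 286) in the pup, and in Stromal-2 at 63.7 CPM (38.9 to 98.4) and 337 CPM (281 to 401). Columnar cells of the pup were at 9.42 CPM (8.11 to 10.9). Immune cells were at 2.95 CPM (0.608 to 8.62) at E15 and 13.2 CPM (5.69 to 25.9) in the pup, on 3 and 8 UMIs. The pup smooth muscle of the GE-SCJ and stomach had more fibroblast marker UMIs than at E15, with 4092 and 3995 CPM against 1868 and 1362 CPM, and fewer of the smooth muscle markers, with 15328 and 13820 CPM against 20678 and 23229 CPM. The part of these cells in the smooth muscle values was not tested. *Tgfbr3* overlaps 3 gene models on its strand, *Gm42900*, *Gm43422* and *Gm43423*, whose reads could be divided with it.

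**Figure D3:**
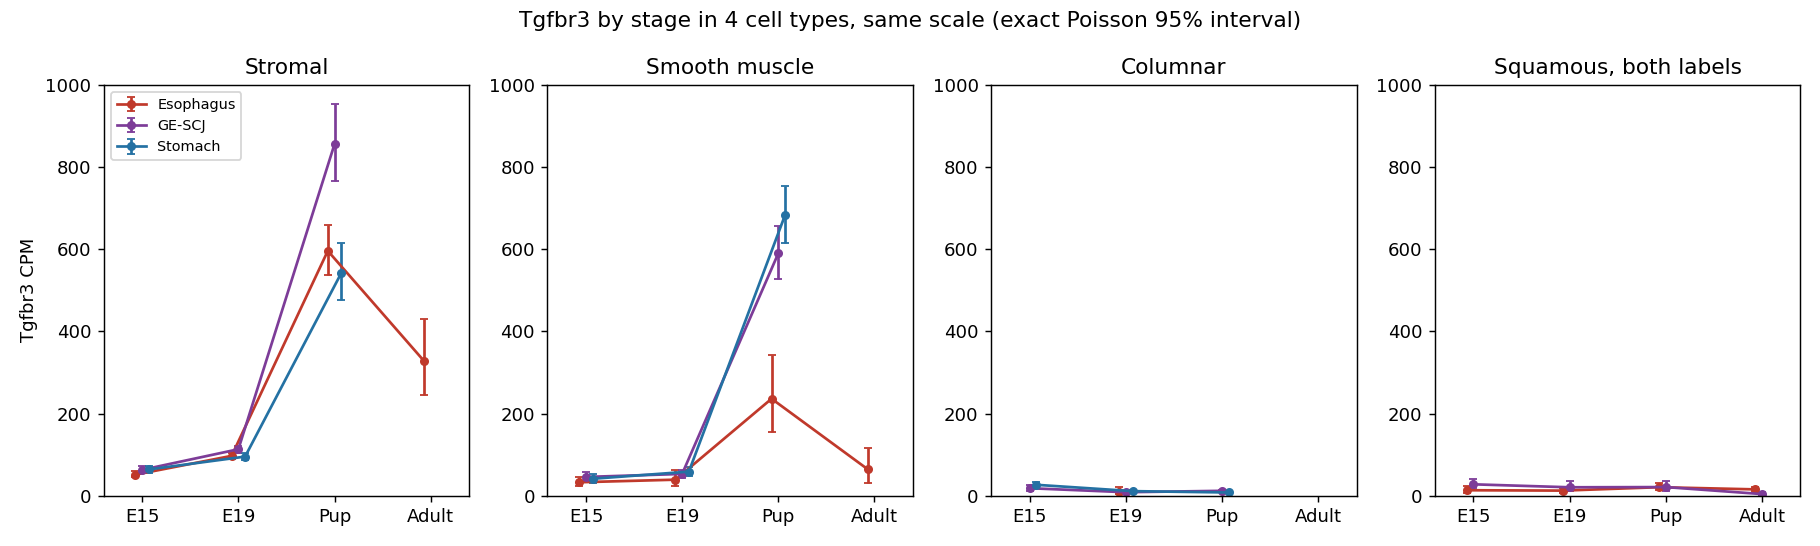
CPM of *Tgfbr3* (y axis, 1 scale for all panels) by stage (x axis) and region (colours) in stromal, smooth muscle, columnar and squamous cells, with exact Poisson 95% intervals. Stromal cells and smooth muscle reach 236 to 856 CPM in the pup, while columnar and squamous cells stay below 30 CPM at every stage.

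*Tgfbr2* in stromal cells was at 104 CPM (94.2 to 115) at E15 and 264 CPM (226 to 308) in the pup in the esophagus, 76.4 CPM (67.8 to 85.8) and 279 CPM (230 to 337) in the GE-SCJ, and 65.7 CPM (57.9 to 74.4) and 161 CPM (126 to 203) in the stomach. The log2 ratios were 1.35 (1.08 to 1.61), 1.88 (1.55 to 2.20) and 1.31 (0.91 to 1.69). Its E15 and pup intervals do not overlap in any region. Over all regions, *Tgfbr2* was also higher in the pup than at E15 in other labels. It went from 38.3 to 129 CPM in smooth muscle, 28.7 to 202 CPM in Stromal-2, 163 to 679 CPM in endothelial and 26.9 to 87.5 CPM in neural cells. In immune cells it was at 74.7 and 92.2 CPM, which overlap. In stromal cells the type I receptor *Tgfbr1* stayed under 2-fold in all 3 regions, with ratios of 0.44 (-0.15 to 0.99), 0.50 (-0.22 to 1.15) and 0.65 (0.01 to 1.23). *Tgfb2* gave 2.36 (1.95 to 2.77) in the esophagus, 0.55 (0.08 to 1.00) in the GE-SCJ and 1.43 (1.03 to 1.80) in the stomach. The E15 level of *Tgfb2* in the GE-SCJ, 81.2 CPM (72.3 to 90.8), was the highest of the 3 regions, and its pup level of 117 CPM (85.6 to 156) the lowest, though the pup intervals overlap.

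*Tgfb3* in the stomach went from 24.4 CPM (19.7 to 29.8) at E15 to 56.0 CPM (36.2 to 82.7) in the pup, a log2 ratio of 1.24 (0.56 to 1.88). It gave 0.98 (0.21 to 1.69) in the GE-SCJ and 0.76 (0.24 to 1.26) in the esophagus, under 2-fold in both. *Tgfb1* in the stomach gave 1.10 (0.14 to 1.96), from 55 UMIs at E15 and 13 in the pup, and its interval takes in ratios well under 2-fold. In the esophagus *Tgfb1* gave 1.15 (0.01 to 2.19), from 29 UMIs at E15 and 10 in the pup, too few to be counted. In the GE-SCJ it gave -0.04 (-1.54 to 1.17). *Inhba* in the esophagus fell from 26.2 CPM (100 UMIs) to 6.37 CPM (1.74 to 16.3, 4 UMIs), a log2 ratio of -1.74 (-3.39 to -0.47). Beside it, the smooth muscle markers in these stromal cells went from 1197 to 385 CPM, and their part was not tested. The pup stromal cells were shallower than those of E15 in every region, with medians of 3859, 4242.5 and 5072.5 against 10573, 9875.5 and 9858 UMIs. Their median percentage of mitochondrial UMIs was 1.53% to 1.72%, against 1.84% to 2.16% at E15. The part of depth in these ratios was not tested.

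Among the other 35 pathway genes, 10 were up and 3 down of 28 considered in the esophagus, 9 up and 2 down of 27 in the GE-SCJ and 6 up and 0 down of 27 in the stomach. Their median log2 ratio was 0.44, 0.34 and 0.52. None of the 6 transducers (*Smad2*, *Smad3*, *Smad4*, *Smurf2*, *Tgif1* and *Ski*) passed 2-fold in any region. *Ccn2*, a matricellular gene induced by TGF-beta and by mechanical strain, was the gene past 4-fold in all 3 regions, with 3.13 (2.81 to 3.47), 2.17 (1.86 to 2.48) and 2.38 (2.07 to 2.68). *Thbs1*, whose product can free latent TGF-beta, rose from 406 to 2105 CPM in the stomach, with 2.37 (2.25 to 2.49). In the GE-SCJ, *Fbn1*, the microfibril gene to which LTBPs bind, gave 2.04 (1.89 to 2.18), and *Fstl3*, which encodes an activin antagonist, gave 2.14 (1.22 to 3.00) on 16 and 36 UMIs.

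Adult stromal cells could be set against E15 in the esophagus alone, and only 31 cells with 161569 UMIs were available. They differed from the E15 cells in median depth (4906 against 10573 UMIs), median mitochondrial share (2.83% against 1.84%) and smooth muscle markers (204 against 1197 CPM), whose part in the ratios was not tested. *Tgfb2*, *Tgfb3*, *Tgfbr2*, *Tgfbr3* and *Inhba* were higher in the adult, 5 of 8 members considered, where 30.5% of all genes passed 2-fold. *Tgfbr3* gave a log2 ratio of 2.70 (2.24 to 3.14) on 53 adult UMIs and *Tgfbr2* 1.81 (1.39 to 2.20) on 58. *Tgfb2* gave 1.93 (1.13 to 2.66) on 17 UMIs and *Tgfb3* 1.61 (0.86 to 2.29) on 19. *Inhba* was at 92.8 CPM (52.0 to 153) on 15 UMIs, with 1.90 (1.04 to 2.67), so the order of its stages was low in the pup and high in the adult. *Tgfb1* was likewise at 92.8 CPM (52.0 to 153), but held under 50 UMIs in both groups together and was not counted. It was at 7.61 CPM at E15, and adult over E15 gave 3.65 (2.68 to 4.57) on 15 and 29 UMIs. Of the 35 other genes 11 were up and 3 down among 25 considered. The response gene *Ccn2* gave 2.64 (2.06 to 3.19) and *Ltbp4*, a latent TGF-beta binding protein gene of elastic tissue, 2.21 (2.03 to 2.39).

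Smooth muscle was compared with stromal cells within each region at E19. *Ltbp1*, *Inhba*, *Tgfbr1* and *Tgfb1* were higher in esophageal smooth muscle, and *Tgfb3*, *Tgfbr2* and *Tgfbr3* were lower, 7 of 9 members where 24.1% of all genes passed 2-fold. In the GE-SCJ *Tgfb1* and *Tgfbr3* were lower, 2 of 9, against 16.6% of all genes. In the stomach *Tgfb1*, *Tgfb2*, *Tgfb3* and *Tgfbr2* were lower, 4 of 9, against 20.4%. The esophageal smooth muscle group held 42 cells, and those of the GE-SCJ and stomach 190 and 160. With classes set from marker genes in place of the labels, 3 members were past 2-fold in the esophagus.

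The ratio of *Ltbp1* differed between regions. Smooth muscle was at 143 CPM (110 to 182) in the esophagus, 141 CPM (127 to 157) in the GE-SCJ and 79.2 CPM (67.2 to 92.8) in the stomach at E19. The stromal level was 16.6 CPM (13.7 to 19.9) in the esophagus and 93.9 CPM (86.1 to 102) in the GE-SCJ, whereas the smooth muscle intervals of these regions overlap. Its log2 ratio was 3.11 (2.66 to 3.56), 0.59 (0.39 to 0.79) in the GE-SCJ and 0.18 (-0.09 to 0.45) in the stomach. *Ltbp1* in smooth muscle was higher after birth, at 236 CPM (155 to 343), 242 CPM (204 to 286) and 183 CPM (149 to 222) in the pup of the 3 regions and 315 CPM (237 to 411) in the adult esophagus. In the esophagus the pup interval overlaps that of E19. *Inhba* in smooth muscle followed the region, with 101 CPM (83.8 to 122) in the esophagus, 44.4 CPM (35.1 to 55.6) in the GE-SCJ and 6.05 CPM (2.90 to 11.1) in the stomach at E15. At E19 the order was the same, with 62.7 CPM (42.0 to 90.1), 33.1 CPM (26.2 to 41.2) and 15 CPM (10.1 to 21.6), and no neighbouring intervals overlap at either stage. *Inhba* in esophageal smooth muscle over stroma gave 1.95 (1.32 to 2.54).

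*Tgfb2* in stomach smooth muscle was at 10.9 CPM (6.73 to 16.6) at E19, a log2 ratio to stroma of -2.19 (-2.88 to -1.56), and in the pup at 80.6 CPM (58.8 to 108). The pup group held 3995 CPM of the fibroblast markers against 1724 CPM at E19, and 13820 against 37244 CPM of the smooth muscle markers. The part of this mix in the pup level was not tested. At E19 *Tgfbr2* in smooth muscle over stroma gave -1.40 (-2.10 to -0.77) in the esophagus and -1.55 (-1.95 to -1.17) in the stomach. *Tgfb1* gave 1.02 (-0.36 to 2.17) in the esophagus on 6 UMIs in smooth muscle, an interval that includes no difference. Of the 35 pathway genes, 1 was up and 9 down of 28 in the esophagus, 2 up and 10 down of 31 in the GE-SCJ and 2 up and 11 down of 30 in the stomach. All 3 genes of the coreceptor list were lower in smooth muscle in each region, namely *Eng* (endoglin, a coreceptor), *Acvrl1* (the type I receptor ALK1) and *Bambi*, a decoy receptor gene. *Lrrc32*, which anchors latent TGF-beta at the cell surface, gave -3.25 (-4.72 to -2.09) in the GE-SCJ and -3.53 (-5.42 to -2.14) in the stomach, and *Thbs1* gave -3.31 (-4.11 to -2.60) in the esophagus. *Fst*, the follistatin gene and an activin antagonist, was higher, with 3.19 (2.89 to 3.51) in the GE-SCJ.

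Over all regions and stages, the 3 ligands were at 10.0 CPM or less in each epithelial label, with higher values in single groups. At E15 *Tgfb1* was at 13.2 CPM in esophageal squamous cells on 13 UMIs, and at 7.61 CPM in esophageal stroma on 29 UMIs. *Tgfb2* was at 14.4 CPM in E15 GE-SCJ columnar cells on 19 UMIs, and at 1.59 CPM in the pup on 13. The clearest stage pattern was that of *Ltbp1* in columnar cells. In GE-SCJ columnar cells *Ltbp1* had E15 and E19 levels of 96.7 CPM (80.7 to 115) and 33.5 CPM (29.4 to 38.0), and a pup level of 5.86 CPM (4.32 to 7.77). In stomach columnar cells it was at 40.9 CPM (34.8 to 47.8), 20 CPM (17.3 to 23.1) and 4.47 CPM (3.33 to 5.87). From E15 to the pup the level was lower at each later stage in both regions without overlap. Both pup levels were no higher in CPM than the immune level of *Ltbp1*, 6.91 CPM (4.51 to 10.1), taken as a guide to free RNA. The pup columnar cells were deeper, with medians of 22286 and 29810 UMIs per cell against 8266.5. They held 48 *Ltbp1* UMIs in 291 cells and 51 in 351, against 26 in 354 immune cells. The part of free RNA in the pup levels, and so in the pup over E15 ratios, was not tested. The 26 adult columnar cells of all regions held 13 UMIs of *Ltbp1*, at 18.0 CPM (9.59 to 30.8), above the 5.06 CPM (4.12 to 6.16) of pup columnar cells of all regions. They came from 2 groups under 20 cells. In these, 4 of 7 esophageal and 9 of 19 GE-SCJ cells had nearest neighbours mostly from across birth. In the pup it was 4 of 10, 12 of 291 and 17 of 351 columnar cells in esophagus, GE-SCJ and stomach. Their part in the adult level was not tested. The log2 ratio of pup over E15 was -4.03 (-4.53 to -3.54) in the GE-SCJ and -3.18 (-3.66 to -2.72) in the stomach, and 0.152% and 0.769% of all considered genes had a lower ratio. Of the members considered, 1 of 4 was past 2-fold in the GE-SCJ, where 30.6% of all genes were, and 2 of 5 in the stomach, where 30.2% were.

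The fibroblast markers in columnar cells went the same way in the GE-SCJ, from 404 CPM at E15 to 104 CPM in the pup for the 4 markers, and from 159 to 100 CPM in the stomach. Their part in the *Ltbp1* difference was not tested. *Tgfbr3* in stomach columnar cells fell from 26.4 CPM (21.5 to 32.1) to 7.71 CPM (6.18 to 9.49), a log2 ratio of -1.78 (-2.20 to -1.35), which is the opposite direction to that in the stroma of the same region. In CPM the pup level lay at the immune level of 6.38 CPM (4.09 to 9.49), though on 88 UMIs in 351 deeper cells against 24 in 354. The part of free RNA was not tested. In GE-SCJ columnar cells *Tgfbr3* gave -0.66 (-1.30 to 0.04), under 2-fold. *Tgfbr2* gave 0.60 (-0.04 to 1.30) and 0.46 (0.07 to 0.86) in the GE-SCJ and stomach, against a median of -0.38 over all genes in both. *Inhba* was at 9.06 CPM (4.68 to 15.8) in GE-SCJ columnar cells at E15 and 0.244 CPM (0.0296 to 0.882) in the pup, on 12 and 2 UMIs. Of the 35 pathway genes 1 was up and 6 down of 23 in the stomach and 1 up and 7 down of 21 in the GE-SCJ. Over all considered genes, 9.32% were up and 20.9% down in the stomach, and 8.81% and 21.8% in the GE-SCJ. Among the lower pathway genes were *Bambi* with -2.84 (-3.65 to -2.03) in the GE-SCJ, *Ccn2* with -2.12 (-2.85 to -1.36) there and *Thbs1* with -2.13 (-2.35 to -1.92) in the stomach.

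Squamous and columnar cells meet at the GE-SCJ, and were compared there at 3 stages. Here and below, the labels Squamous and Squamous-2 are joined. *Ltbp1* was lower in squamous cells at E15 and E19, *Tgfbr3* was higher at E19 and *Tgfbr2* was lower in the pup. This was 1 of 2 members considered at E15, where 11.4% of all genes passed 2-fold. At E19 it was 2 of 4, against 20.8%, and in the pup 1 of 4, against 26.6%. Members under 50 UMIs were not counted. Among these, *Tgfb1* in the pup gave 3.35 (1.98 to 4.69) on 9 squamous and 11 columnar UMIs. *Tgfbi* at E19 gave 1.93 (0.75 to 2.97) on 9 and 34, and *Tgfb2* at E15 gave -1.77 (-3.78 to -0.19) on 3 and 19. Over all regions and stages, *Tgfb1* was at 10.0 CPM (8.19 to 12.2) in the label Squamous and 2.34 CPM (1.90 to 2.84) in columnar cells. *Ltbp1* gave -2.46 (-3.31 to -1.71) at E15, from 16.6 CPM (9.28 to 27.4) in 47 squamous cells and 96.7 CPM in 53 columnar cells, and -1.01 (-2.16 to -0.06) at E19 on 8 squamous UMIs. *Tgfbr3* at E19 gave 1.39 (0.36 to 2.29) on 11 squamous UMIs in 34 cells, and was no longer past 2-fold without the 1% of cells with most of its UMIs, at 0.48. That group also held 683 CPM of the smooth muscle markers, against 119 CPM in columnar cells, and their part was not tested. *Tgfbr2* in the pup gave -1.07 (-2.30 to -0.07) on 7 squamous UMIs. With mitochondrial, ribosomal protein and hemoglobin genes left out of the library size, the pup ratios of all genes shifted from a median of -0.03 to 0.28, the higher share of all calls went from 39.0% to 60.5%, and *Tgfbr2* was no longer past 2-fold. Of the 35 pathway genes 0 were up and 3 down of 16 at E15, 6 up and 2 down of 24 at E19, and 5 up and 1 down of 20 in the pup. *Acvr1c*, the activin type I receptor ALK7, gave -3.51 (-6.56 to -1.64) in the pup and *Ccn2* 3.54 (2.86 to 4.22). At E19 *Ltbp4* gave 2.09 (1.69 to 2.48) and *Ccn2* 2.27 (1.35 to 3.13).

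*Inhbb* was too sparse for a ratio, and its highest squamous level was in the prenatal GE-SCJ. It was at 21.0 CPM (12.7 to 32.8, 19 UMIs in 12 of 47 cells) in GE-SCJ squamous cells at E15. The E19 level was 11.1 CPM (4.09 to 24.2) and the pup level 1.49 CPM (0.0378 to 8.32), and 87 adult cells held no UMI. In esophageal squamous cells it had 0 UMIs at E15, which allows up to 3.05 CPM, 1 UMI at E19, 0 among pup cells and 2 among adult cells. GE-SCJ columnar cells were at 7.55 CPM (3.62 to 13.9) at E15 and 0.610 CPM (0.198 to 1.42) in the pup. The E15 GE-SCJ squamous level thus lay above that of the esophageal squamous cells of the same stage beyond counting error, on 1 pool of mice. The GE-SCJ squamous cells at E15 also had more columnar marker UMIs, 1553 CPM against 982 CPM in the esophagus, and their part was not tested.

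In squamous cells of the esophagus the adult was set against E15. *Tgfbr1* was lower and *Tgfbi* higher, 2 of 4 members considered, where 32.2% of all genes passed 2-fold and the median of all genes was -0.44. *Tgfbr1* had E15 and E19 levels of 58.0 CPM (43.9 to 75.2) and 26.3 CPM (19.2 to 35.2), a pup level of 18.5 CPM (11 to 29.2) and an adult level of 11.5 CPM (8.12 to 15.9). Adult over E15 gave -2.32 (-2.95 to -1.70). GE-SCJ squamous cells had the same order, from 37.6 CPM (26.0 to 52.5) at E15 to 11.6 CPM (6.87 to 18.3) in the adult. The type II receptor gene *Tgfbr2* did not share this pattern in the esophagus, with 18.3 CPM (10.9 to 29.0) at E15 and 19.6 CPM (15.1 to 25.1) in the adult. *Tgfbi* rose from 11.2 CPM (5.59 to 20) to 29.6 CPM (23.9 to 36.2), a ratio of 1.29 (0.42 to 2.29). Of 108 *Tgfbi* UMIs in 319 adult squamous cells of all regions, 95 came from the 232 esophageal cells. The other adult UMIs were in 87 GE-SCJ cells, and the adult level of both regions together was below the esophageal one, at 22.7 CPM (18.6 to 27.4). At E15 GE-SCJ squamous cells were at 7.74 CPM on 7 UMIs. The rise is thus stated for the esophagus alone and was not seen to extend to the GE-SCJ. The fibroblast markers in the esophageal squamous cells went from 1083 to 232 CPM and the columnar markers from 982 to 264 CPM, and their part was not tested. Of the 35 pathway genes 1 was up and 8 down of 19, with *Acvr2b*, an activin type II receptor gene, at -3.44 (-4.51 to -2.49) and *Tgif1*, a SMAD corepressor gene, at -2.01 (-2.44 to -1.57).

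**Figure D4:**
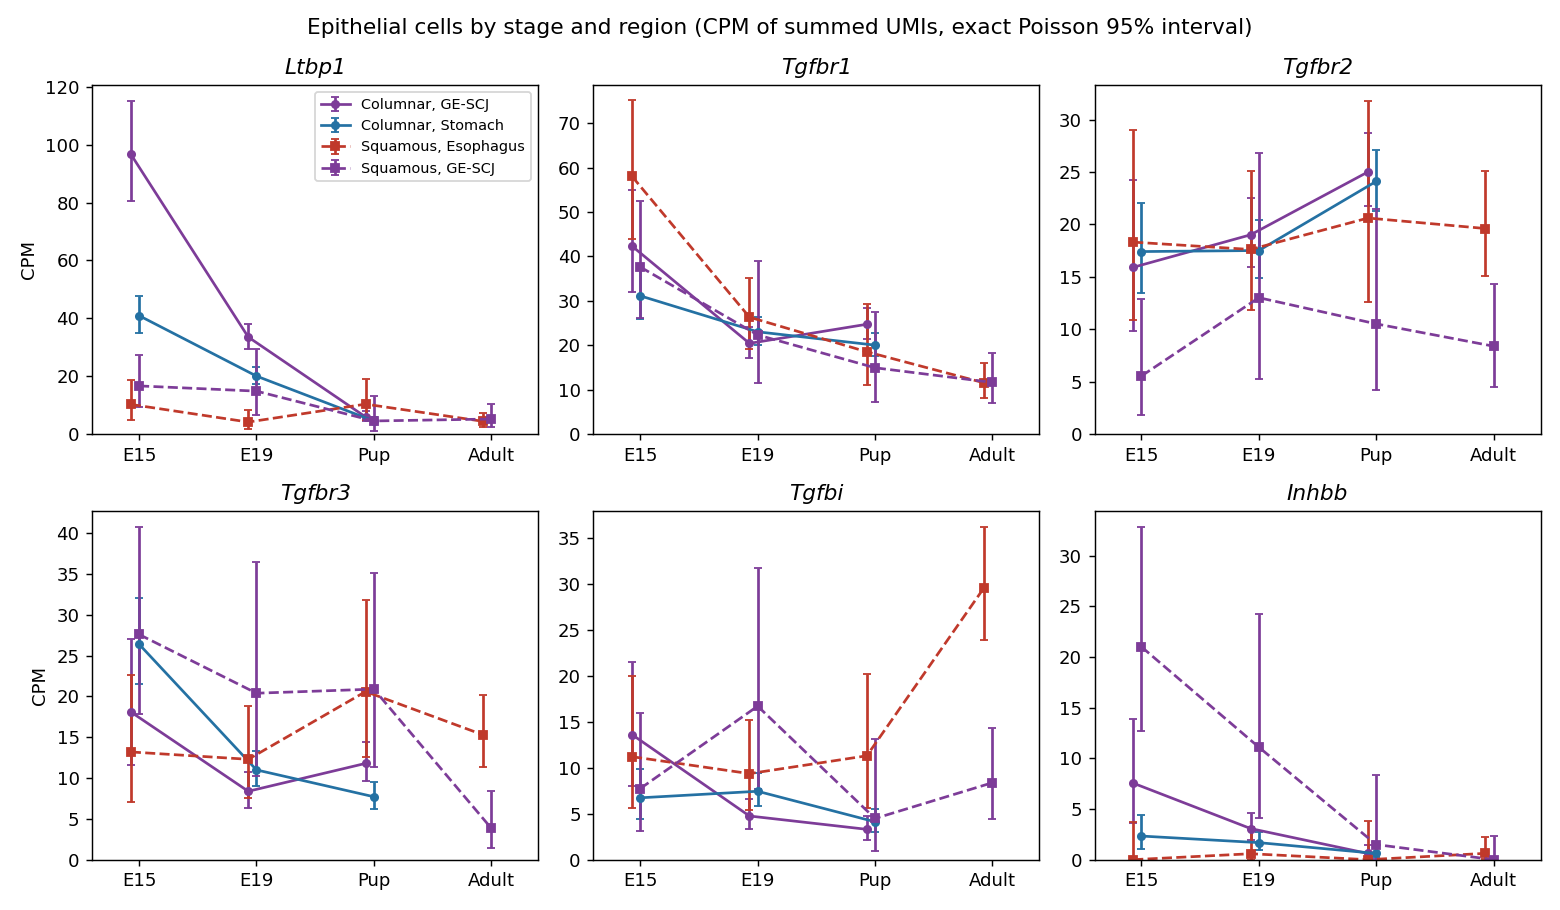
CPM of 6 genes (y axis, a separate scale for each gene) by stage (x axis) in columnar cells (solid lines, circles) of the GE-SCJ and stomach and squamous cells (dashed lines, squares) of the esophagus and GE-SCJ, with exact Poisson 95% intervals. *Ltbp1* falls from 96.7 to 5.86 CPM in GE-SCJ columnar cells and *Tgfbr1* from 58.0 to 11.5 CPM in esophageal squamous cells, and *Inhbb* is highest in E15 GE-SCJ squamous cells at 21.0 CPM.

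**Figure D5:**
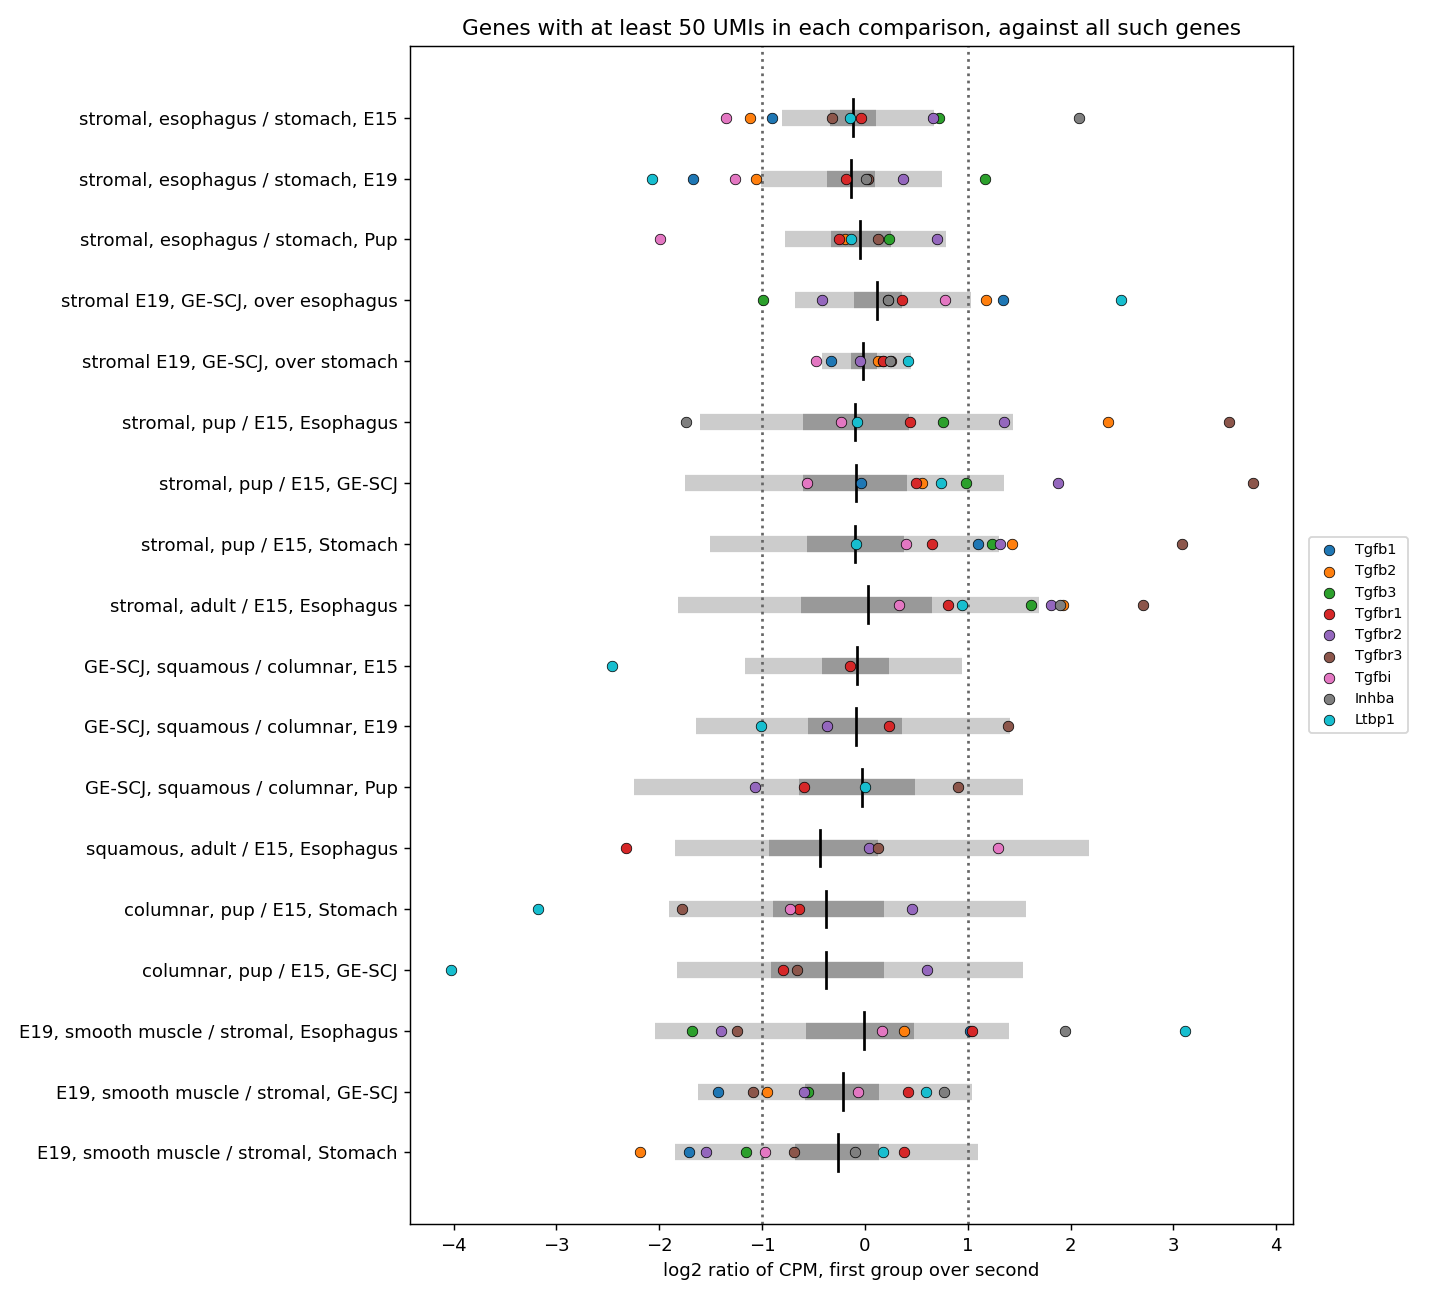
Log2 ratio of CPM (x axis) of the members with at least 50 UMIs (coloured points) in each of the 18 comparisons (y axis). Bars give the 5th to 95th percentile (light) and quartiles (dark) of all considered genes, the black line their median, and dotted lines 2-fold. *Tgfbr3* in pup stroma (3.08 to 3.77) and *Ltbp1* in pup columnar cells (-3.18 and -4.03) lie outside the bars, as does *Ltbp1* in esophageal smooth muscle (3.11).

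Genes whose pattern was most like each member were found by the correlation of log2(CPM + 10) over 55 groups of label, region and stage with at least 20 cells, among 11672 genes with at least 500 UMIs. The groups share 1 library and differ in depth, so r is a description. *Tgfb1* was most like *Fxyd5* and *Fli1* (r = 0.93 for each) and *Gngt2* (0.91). *Tgfb2* was most like *Lsamp* (0.91), *Tmod2* and *Serpine2* (0.88 each), and *Tgfb3* like *Aebp1*, *Ccdc80* (0.87 each) and *B3gnt9* (0.86). Among the receptors, *Tgfbr1* was most like *Itsn1* (0.84), *Tgfbr2* like *Tnfsf12* (0.82) and *Tgfbr3* like *Pkd2* (0.89), with *Mxra8* (0.89) and *Eln* (0.87) next. *Tgfbi* was most like *Rcsd1* (0.88), *Ltbp1* like *Thra* (0.84) and *Inhba* like *Nkx6-1* (0.81). *Inhbb*, with the fewest UMIs, reached 0.79 with *Sfta2*.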

How the data were processed

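Per the labels and the deposited tables, the authors made 1 multiplexed 10x library, ran Cell Ranger multi 6.1.1 against the 10x mouse mm10 reference, filtered cells and assigned each barcode a sample tag and a cell label. The deposited counts are whole UMIs per gene and cell and were used as they stand, with the authors' labels, and no further doublet step was run. For quality, the mitochondrial percent of each cell was taken as the authors deposited it. UMIs were summed per label, region and stage with pandas 2.3.3 and numpy 2.4.6 under Python 3.11.15, with scikit-learn 1.9.0 for neighbours, scipy 1.17.1 for intervals and matplotlib 3.10.9 for figures, and divided by the summed UMIs of all genes.

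Groups are single pools, so no test was run. A ratio was taken with 1 UMI added, for genes whose joint sum in the compared groups was 50 UMIs or more, and only groups of at least 20 cells are given. Intervals (95%) cover counting error only. Thinning to 5000 UMIs per cell used a fixed seed. The scripts were tested on simulated data. Pathway genes are named where a ratio passed 4-fold, at most 4 a comparison and the largest first. Some results are not reported here. The members and lists were chosen with earlier results of these data known.

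The alternatives were averaging the CPM of single cells, a stricter filter on cells, leaving out the 1% of cells with most UMIs of a gene, another library size, leaving out cells whose nearest neighbours lie across birth, classes from marker genes, minimums of 20 and 100 UMIs, and thinning to 2000 UMIs.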

Additional observations from a re-analysis of the deposited data

Results flagged for a closer look

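*Tgfb1* differed in direction between regions in smooth muscle over stromal cells at E19. The log2 ratio was 1.02 (-0.36 to 2.17) in the esophagus, on 6 and 51 UMIs, -1.43 (-2.26 to -0.68) in the GE-SCJ, on 16 and 107 UMIs, and -1.71 (-2.62 to -0.92) in the stomach, on 13 and 156 UMIs. The difference between regions was not tested, and each region is 1 pool.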

How the results depend on the processing

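Each group is 1 pool, so no replicate could be left out. No paired analysis was possible because no group has replicates. All 50 ratios of members past 2-fold kept their direction under the 6 alternatives that recompute levels, and 44 to 49 of them stayed past 2-fold. The counts of members past 2-fold moved as follows. For squamous over columnar cells at E19 the 2 members became 1 when cells under 1000 UMIs or over 10% mitochondrial UMIs were dropped, without the top 1% of cells, with the other library size, without neighbours across birth and with at least 100 UMIs, and 6 with at least 20 UMIs. In the pup the 1 member became 2 with averaged single-cell CPM, without neighbours across birth and with at least 20 UMIs, and at E15 it became 4 with at least 20 UMIs. Smooth muscle over stroma went from 2 to 4 in the GE-SCJ without the top 1% of cells and from 7 to 3 in the esophagus with classes from markers. With those classes the pup esophagus over stomach stroma went from 1 to 2, as did GE-SCJ columnar cells, which reached 4 with at least 20 UMIs. Esophageal squamous cells went from 2 to 1 with at least 100 UMIs. The cause was not tested. The label with the highest level changed for *Tgfbr3* and *Tgfbi* (to smooth muscle) with averaged single-cell CPM and for *Inhbb* (to squamous) without the top 1% of cells. With classes from markers it changed for *Tgfb3* and *Tgfbr3* (to stromal) and *Ltbp1* (to smooth muscle). Marker classes can move Stromal-2 cells to stromal, so these last changes do not decide the Stromal-2 order. With the other library size the median of all genes in adult over E15 esophageal stroma moved from 0.03 to -0.12. Low counts limit *Inhbb* everywhere and the squamous groups of the GE-SCJ.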
